A study of Mus musculus with 2 samples.

Results

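The 4 Hox clusters of the mouse genome were examined for regions enriched with an antibody against phosphorylated HLXB9. The regions are peaks of chromatin immunoprecipitation and sequencing (ChIP-seq) in MIN6-4N cells, a mouse insulinoma line, which is a tumour line of insulin-producing β-cells. A peak was counted in a cluster when it overlapped by at least 1 base an mm9 window around it: chromosome 6 from 52.10 to 52.22 Mb for HoxA, chromosome 11 from 96.05 to 96.24 Mb for HoxB, chromosome 15 from 102.74 to 102.88 Mb for HoxC and chromosome 2 from 74.48 to 74.61 Mb for HoxD. The windows held 71 of the 83676 peaks of the deposited list: 22 in HoxA, 27 in HoxB, 11 in HoxC and 11 in HoxD. The peaks were selected on their position alone, as the authors' caller placed them, and the windows were proposed with the peak list known. Every value below is therefore a description, and none was tested.

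There were 2 libraries, 1 from the immunoprecipitation with the antibody labelled anti-HB9PO4 and 1 of input chromatin made without an antibody. Both came from MIN6-4N cells transfected with the plasmid pcDNA3.1-myc-his-HLXB9, which makes the cells overexpress HLXB9, and chromatin was taken 48 hours later. The sources used here describe neither untransfected cells nor a control antibody, so whether a peak depends on phosphorylated HLXB9 was not tested. The list was read as the ChIP library set against the input, with 1 library a side, so no replicate error exists. Numbers of sequenced tags are not known here, and intervals given below cover counting error only. They treat peaks as independent, which close peaks of the same 2 libraries need not be. No expression values were analysed, so neither the activity of the Hox genes nor the identity of the cells could be checked against marker genes.

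HLXB9 has the synonyms HB9 and Mnx1. It is a transcription factor with a homeodomain, made in motor neurons and in pancreatic β-cells. The Hox genes encode homeodomain transcription factors as well, and they set the identity of body segments along the head-to-tail axis of the embryo. They stand in clusters, in which the genes near the low-numbered end act earlier and nearer to the head than those near the high-numbered end. Homeodomains commonly bind short sequences with the core TAAT, and TAATTA is a form typical of HLXB9 and of many related factors. The HoxD cluster lies between large gene-poor regions that hold enhancers.

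The 38 Hox genes considered were all named in the RefSeq gene table of GRCm38.p6, a different build from that of the peaks. Its order of genes was used, but no position in it, and the order was taken to hold in mm9. With rising coordinate, HoxA ran from Hoxa2, a hindbrain patterning gene, to Hoxa13, a gene of limb ends and the hindgut, with Evx1 next to it. The other clusters ran the opposite way, from Hoxb13 to Hoxb1, from Hoxc13 to Hoxc4, and from Hoxd13 to Hoxd1, with Evx2 beside Hoxd13. No peak was assigned to a single gene, because no mm9 gene positions were used here.

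RefSeq promoter sequences of GRCm38.p6, each of 300 bases, were matched by symbol for 22 of the 38 genes, as 24 promoters. Not matched were Hoxa4, Hoxb2, Hoxb3, Hoxb5, Hoxb6, Hoxb7, Hoxb9, Hoxb13, Hoxc5, Hoxc6, Hoxc8, Hoxc9, Hoxc10, Hoxc11, Hoxc12 and Hoxc13. The matched promoters show how many Hox promoters hold the letters that a homeodomain of the HLXB9 type prefers. TAATTA reads the same on both strands and was in 2 of the 24, or 8.33%, against 5.29% of all 32851 promoters of the table. Both were starts of Hoxd11, a gene of limb and kidney development in the HoxD cluster. They are printed 5′ to 3′ with TAATTA in capitals, because no other matched Hox promoter held it.
Hoxd11, lower start: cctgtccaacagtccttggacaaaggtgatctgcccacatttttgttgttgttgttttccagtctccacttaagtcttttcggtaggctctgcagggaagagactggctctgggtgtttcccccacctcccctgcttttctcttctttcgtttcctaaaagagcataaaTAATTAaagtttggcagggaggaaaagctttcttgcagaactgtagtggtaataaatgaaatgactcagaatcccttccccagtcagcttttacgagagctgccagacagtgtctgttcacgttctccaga
Hoxd11, upper start: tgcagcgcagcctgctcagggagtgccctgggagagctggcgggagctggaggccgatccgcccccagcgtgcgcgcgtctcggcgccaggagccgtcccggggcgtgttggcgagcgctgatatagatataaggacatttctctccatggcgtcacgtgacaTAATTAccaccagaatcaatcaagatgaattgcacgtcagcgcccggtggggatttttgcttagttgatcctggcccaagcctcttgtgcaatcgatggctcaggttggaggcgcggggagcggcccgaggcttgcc
The lower is chr2:74679308-74679607 and the upper chr2:74682073-74682372, both on the plus strand of GRCm38.p6. The shorter core TAAT, searched on both strands and also met inside TAATTA, was in 19 of the 24 Hox promoters (79.2%), against 58.0% of all promoters. Hoxa2, Hoxa5 and Hoxa6 each had 4 matches of it. Hox promoters had a median of 14.5 CpG dinucleotides, against 7 over the table, with the most, 45, in Hoxa13. Such matches describe letters in a window and not bound sites. The sequences cannot be laid over the peaks, which are on mm9, and the mm9 sequence under the peaks was not analysed here.

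With all peaks counted, HoxA had the highest peak density and covered share of the 4 clusters. Among peaks with a score of at least 50, HoxB was above HoxA in both. HoxB had 12 such peaks in 190 kb against 6 in 120 kb, and 5.66% covered against 4.97%. Counting all peaks, the 22 of HoxA in 120 kb gave 18.3 per 100 kb (95% exact Poisson interval 11.5 to 27.8). They covered 16.6 kb, or 13.8% of the window. HoxB had 27 peaks in 190 kb, which gave 14.2 per 100 kb (9.36 to 20.7) and a covered share of 10.6%. Both densities lay far above that of the whole list, 3.25 peaks per 100 kb with chromosomes measured from their first to their last peak, where peaks covered 2.47%. HoxD had 11 peaks in 130 kb, or 8.46 per 100 kb (4.22 to 15.1), with 5.86% covered. HoxC had 11 peaks in 140 kb, or 7.86 per 100 kb (3.92 to 14.1), with 6.92% covered. The intervals of all 4 clusters overlapped, which does not by itself settle their order, and no ratio between clusters was computed. The 4 windows together had 12.2 peaks per 100 kb and 9.31% covered.

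**Figure D1:**
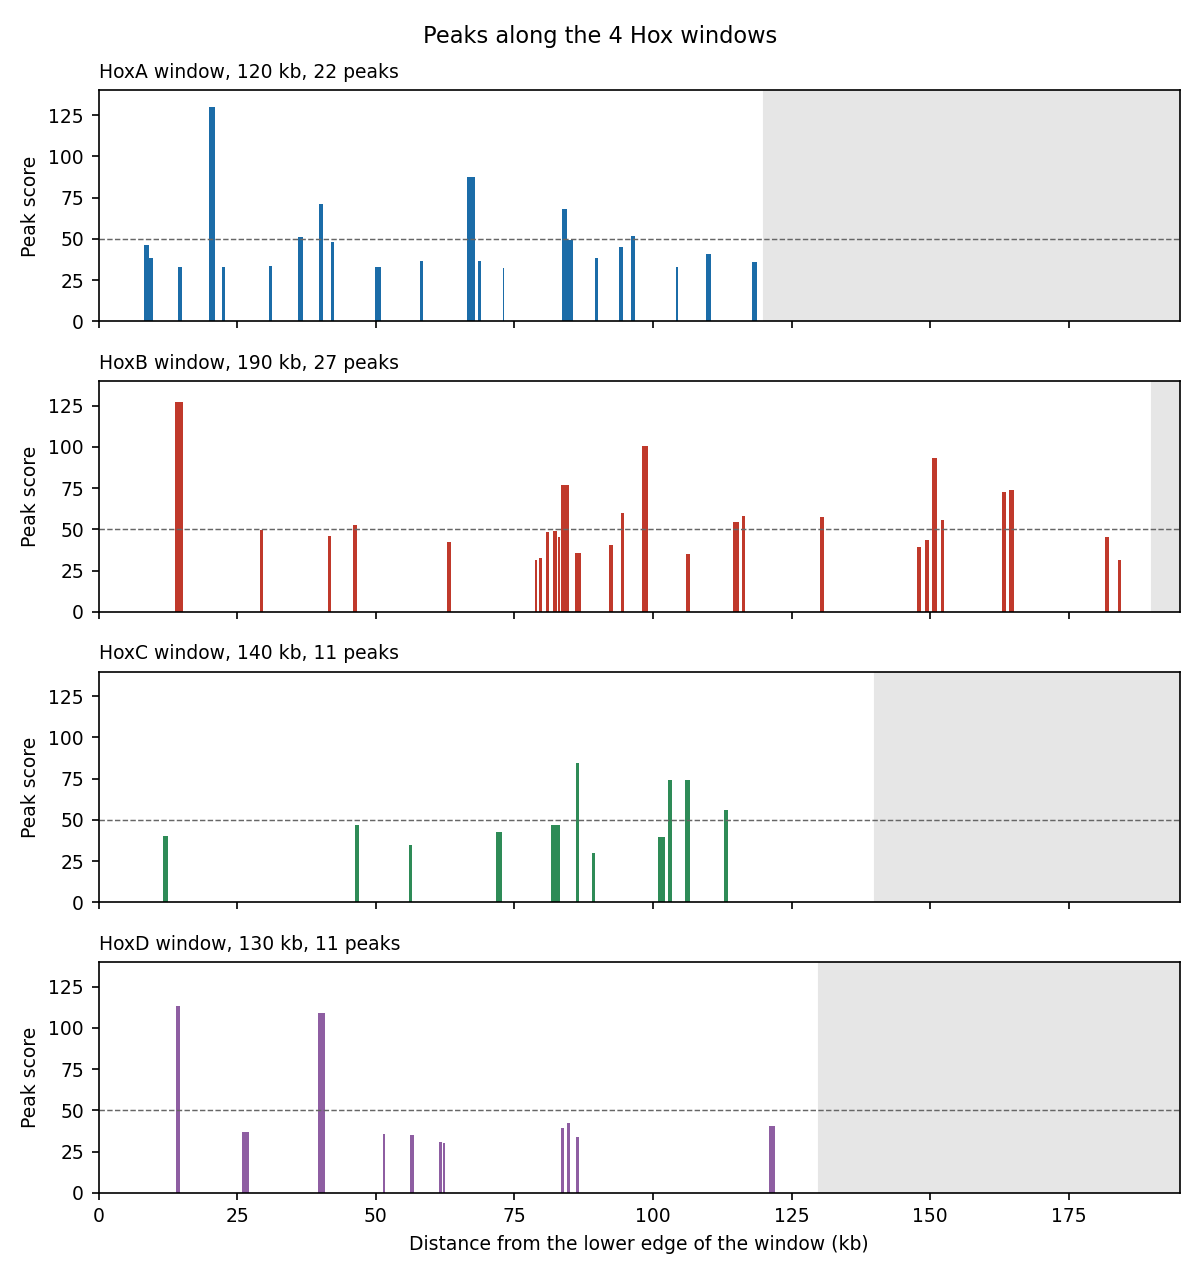
Each panel plots the peaks of 1 Hox window as bars, with the distance from the lower edge of the window in kb on the x axis, the authors' peak score on the y axis and the bar width equal to the peak width. Grey marks the space beyond a window and the dashed line a score of 50. Peaks are spread along all of HoxA, gather in groups in HoxB, and leave the lower part of HoxC and the upper part of HoxD nearly empty. The upper end of the HoxC window also holds no peak.

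The clusters stood differently against their own surroundings, taken as 1 Mb on each side. HoxA had 92 peaks in its flanks, 46 on each side, or 4.60 per 100 kb, so the window was 3.99 times as dense (95% interval 2.38 to 6.40, from the exact binomial interval of the 2 counts). HoxD had 54 peaks in its flanks, 28 below and 26 above, or 2.70 per 100 kb, and its window was 3.13 times as dense (1.48 to 6.06). HoxB had 127 peaks in its flanks, 68 below and 59 above, or 6.35 per 100 kb, and a ratio of 2.24 (1.42 to 3.41). With peaks up to 1 kb apart joined, the ratio of HoxB was 1.57 (0.884 to 2.63), an interval that includes 1. With single peaks counted, the window of each of these 3 clusters was denser than either side taken alone, and the intervals lay above 1 on both sides.

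HoxC differed from its surroundings by less than the counting error. It had 77 peaks in the 1 Mb below and 36 above. The last peak of chromosome 15 lies 0.602 Mb above the window, so this flank was ended there. The flanks then had 7.05 peaks per 100 kb, against 7.86 in the window, a ratio of 1.11 (0.541 to 2.07). Against the lower side alone the ratio was 1.02 (0.489 to 1.93), and with the window lengthened by 10 kb at each end it was 0.969 against both sides. HoxC and HoxD thus held equal numbers of peaks in windows of similar length, one in a dense neighbourhood and the other in a sparse neighbourhood. Over all 4 clusters the windows were 2.41 times as dense as the flanks (1.84 to 3.11), with 71 peaks in 580 kb against 386 in 7.60 Mb.

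**Figure D2:**
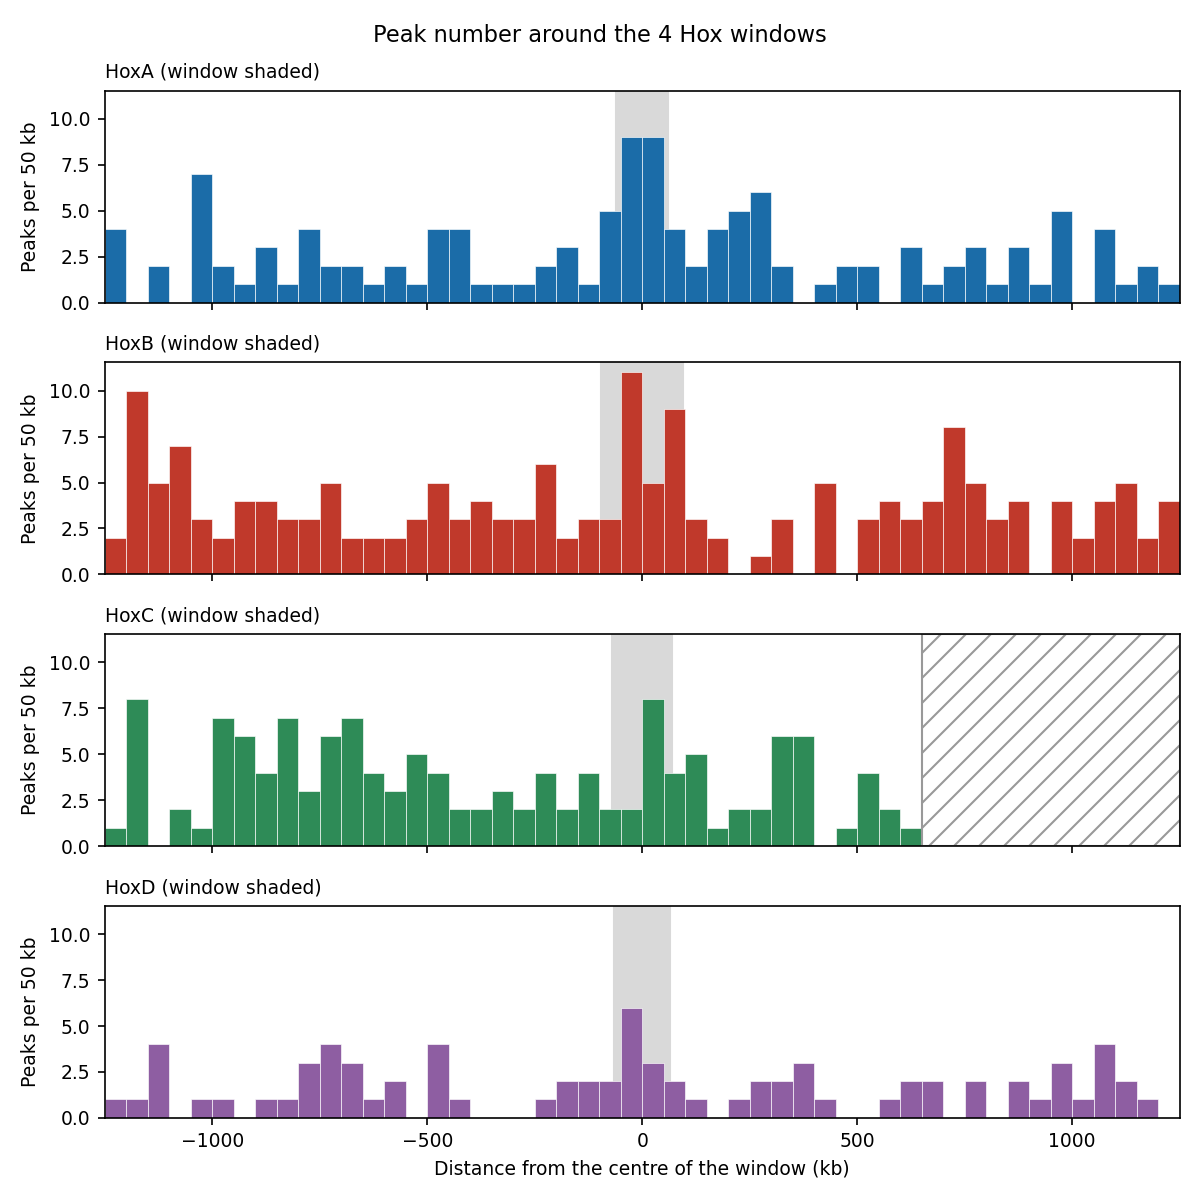
Each panel plots the number of peaks per 50 kb on the y axis against the distance from the centre of 1 Hox window in kb on the x axis, with the window shaded and the stretch beyond the last peak of chromosome 15 hatched. The highest bar lies in the window for HoxA (9 peaks), HoxB (11) and HoxD (6), whereas HoxC has 8 peaks both in its highest bar and in 1 bar outside the window.

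In steps of 50 kb out to 1.25 Mb from the centre, HoxA had 9 peaks in each of the 2 steps centred in its window, and no step outside reached that, the highest having 7. HoxB had 3 to 11 peaks per step inside and at most 10 outside. HoxD had 3 and 6 inside and at most 4 outside. HoxC had 2 and 8 inside, and 1 step outside also had 8. The high step of HoxC lay above the centre of its window, towards Hoxc4.

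Windows of the same length were then laid end to end along each chromosome, leaving out those that touched the Hox window. On chromosome 6, 1243 windows of 120 kb had a median of 4 peaks and a 90th percentile of 8, and the highest had 17. None of them reached the 22 peaks of HoxA. On chromosome 11, 639 windows of 190 kb had a median of 8, a 90th percentile of 15 and a highest value of 24, below the 27 of HoxB. These 2 clusters thus held more peaks than any of these windows. With the windows moved by 0.5 of their length, 1 of 638 on chromosome 11 (0.157%) had at least the 27 peaks of HoxB and still none on chromosome 6 had the 22 of HoxA. HoxC and HoxD were matched by more windows. On chromosome 15, 65 of 737 windows of 140 kb (8.82%) had at least the 11 peaks of HoxC, with a median of 5 and a highest value of 16. On chromosome 2, 60 of 1396 windows of 130 kb (4.30%) had at least the 11 peaks of HoxD, with a median of 2 and again a highest value of 16. Among peaks with a score of at least 50 alone, 19.3% of these windows had at least the 2 of HoxD. Sequence that cannot be mapped was not removed, and 298 of the windows on chromosome 2 had no peak, as had 86 on chromosome 6.

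**Figure D3:**
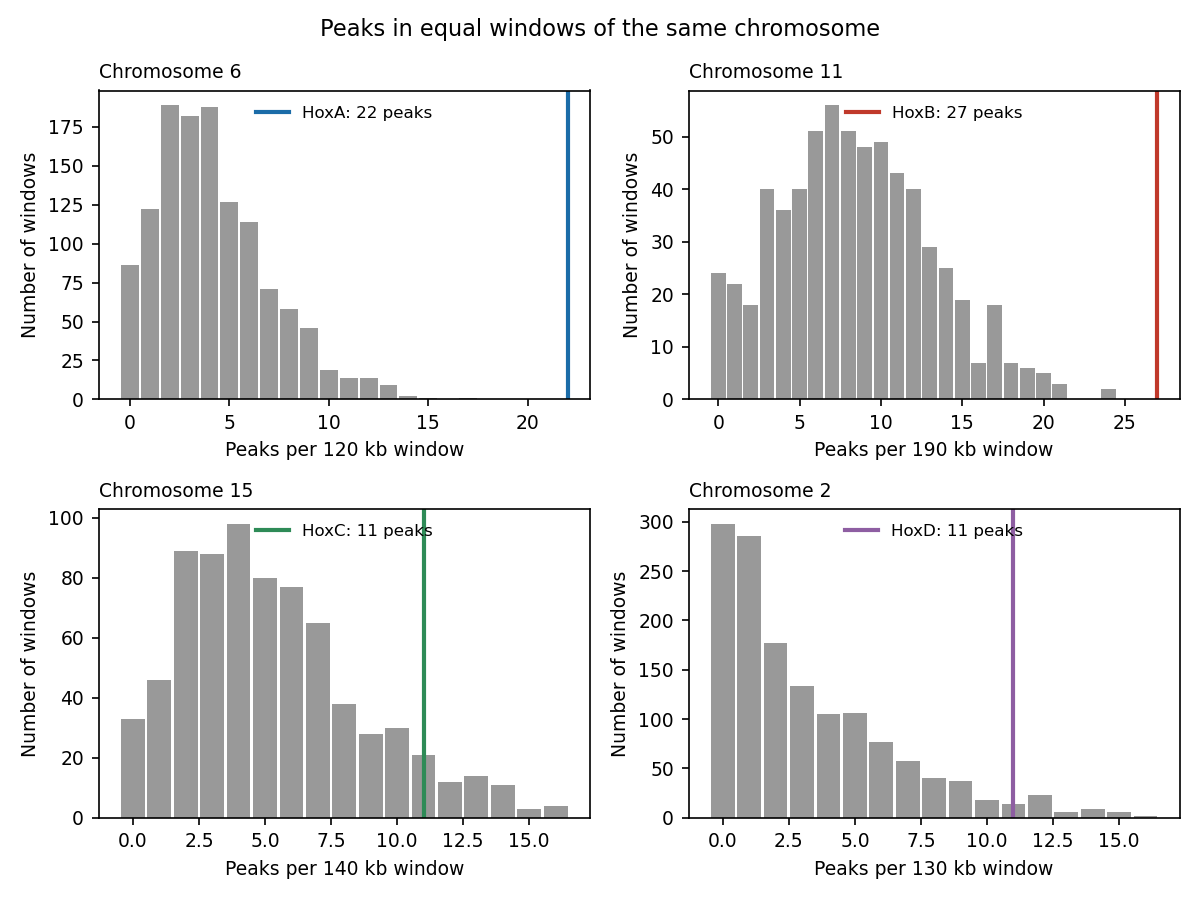
Each panel is a histogram of the number of peaks (x axis) in windows as long as 1 Hox window on the same chromosome, with the number of windows on the y axis, and the coloured line marks the Hox window. The lines of HoxA (22 peaks) and HoxB (27) lie beyond every bar of this placement of the windows, and those of HoxC and HoxD (11 each) lie in the upper tail.

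By covered bases the standing of HoxB was lower than by peak number. Of the 639 windows on chromosome 11, 16 (2.50%) had at least the 10.6% covered in HoxB, and the highest had 15.7%. The median width in HoxB, 685 bp, was below the 716 bp of chromosome 11. For HoxA, 2 of 1243 windows had at least its 13.8%. Among equal windows of all autosomes, a comparison added after the data were seen, 1 of 20589 had at least the peak number of HoxA and 2 of 12998 that of HoxB. The corresponding shares were 5.74% for HoxC and 4.46% for HoxD.

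Peaks within the windows had mostly low scores, as in the whole list. The score is the authors' own and was taken as the p-value of MACS, the peak caller, put on a negative log10 scale and multiplied by 10. Of the 71 peaks, 24 (33.8%, 95% exact binomial interval 23.0% to 46.0%) had a score of at least 50, which corresponds to a p-value of 1e-05, against 24.1% of all peaks. By cluster this held for 6 of 22 peaks in HoxA (27.3%), 12 of 27 in HoxB (44.4%), 4 of 11 in HoxC (36.4%) and 2 of 11 in HoxD (18.2%). In the flanks the shares were 20.7%, 31.5%, 26.5% and 22.2% in the same order. The share was higher in the window than in the flanks for HoxA, HoxB and HoxC and lower for HoxD, with overlapping intervals in all 4. Scores of 100 or more were found in 5 of the 71 peaks (7.04%, 2.33% to 15.7%), against 1.66% of all peaks. The highest of these 5 ranked 457th of the 83676 peaks, within the first 0.546% of the list. Median scores were 39.8 in HoxA, 48.9 in HoxB, 46.6 in HoxC and 37.0 in HoxD, beside 39.2 over the list.

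The peaks were of ordinary width. Their median was 710 bp, against 657 bp over the list, and the range was 312 to 1585 bp. A width of at least 1 kb was found in 14 of the 71 (19.7%, 11.2% to 30.9%), against 18.4% of all peaks. No peak was 2 kb wide or wider, which allows a share of up to 4.23% at 3 counts, or 5.06% by the exact binomial interval, and 1.74% of all peaks were. Median width was 730.5 bp in HoxA, 685 bp in HoxB, 821 bp in HoxC and 507 bp in HoxD. The median of HoxD was the lowest, beside 474.5 bp in its flanks and 551 bp on chromosome 2 as a whole. HoxD nonetheless had 3 of 11 peaks of at least 1 kb (27.3%, 6.02% to 61.0%), the highest share of the 4 clusters, against 3.70% in its flanks (0.452% to 12.7%) and 6.65% on chromosome 2. In HoxB the peaks in the window had a lower median than the 784 bp of its flanks. Over the 71 peaks, which share both libraries and their calling, score and width had a Spearman correlation of 0.55, beside 0.34 over the list.

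**Figure D4:**
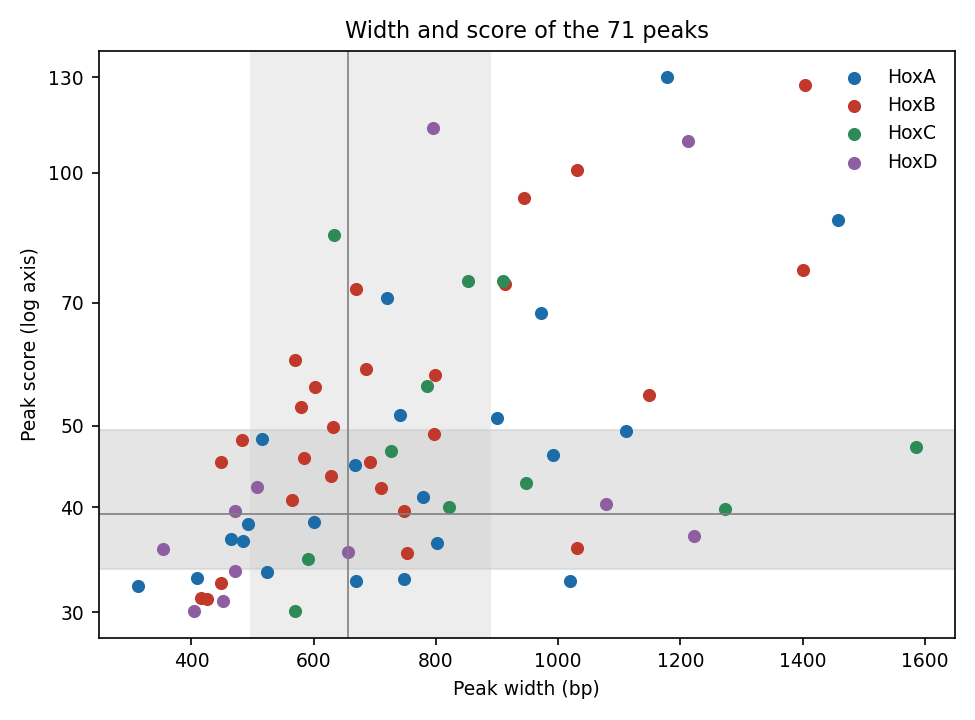
Each point is 1 of the 71 peaks, with its width in bp on the x axis and its score on a logarithmic y axis, coloured by cluster. Grey bands and lines mark the interquartile range and the median over the whole list (657 bp and 39.2), and the 5 points with a score of at least 100 belong to HoxA (1), HoxB (2) and HoxD (2).

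In HoxA, peaks were spread over the whole window, which carries Hoxa2 to Hoxa13. All 12 steps of 10 kb held part of a peak. In its flanks 63.5% of such steps held none, and on the autosomes 70.6%. The longest stretch without a peak was 10.3 kb (52173182 to 52183512), and the median distance between neighbours was 4.56 kb, against 12.0 kb in the flanks. The 3 equal parts of the window, from the Hoxa2 side to the Hoxa13 side, held 7, 7 and 8 peaks, with 14.8%, 11.7% and 14.9% covered. Neither end of the cluster was thus favoured by peak number. The single highest scores in the 3 parts were 129.86, 87.81 and 68.17, but the median scores were 38.4, 36.6 and 43.0, and each part held 2 peaks of at least 50.

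The highest-scoring peak of all 4 clusters was in HoxA, on the Hoxa2 side of the window. It was 1178 bp wide (52119820 to 52120997) with a score of 129.86, and ranked 457th in the list. The next in HoxA were a peak of 1457 bp (52166515 to 52167971, score 87.81), which was also its widest, and a peak of 720 bp (52139694 to 52140413, score 71.05). These 3 peaks lay in the lower and middle parts of the window. Of 21 distances between neighbours in HoxA, 3 (14.3%) were no longer than 1 kb, against 3.33% in the flanks and 5.72% on the autosomes. The shortest, 10 bp, separated peaks of 972 and 1111 bp with scores of 68.17 and 49.28 (52183513 to 52185605).

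In HoxB the peaks gathered in the middle and upper parts of the window, towards Hoxb1. From the Hoxb13 side to the Hoxb1 side, the 3 equal parts held 5, 13 and 9 peaks, with 5.90%, 15.7% and 10.1% covered. The Poisson intervals of 5 (1.62 to 11.7) and 13 (6.92 to 22.2) overlapped. Neighbours were close: 10 of 26 distances (38.5%) were no longer than 1 kb, against 10.4% in the flanks and 5.72% on the autosomes. The median distance was 2.43 kb, the shortest of the 4 clusters.

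HoxB also held the 2 runs of at least 3 peaks, each no more than 1 kb from the next, found in the windows. The larger, of 6 peaks in 6.22 kb (96128618 to 96134834), was the only run of 6 in the list. Its peaks were 425, 448, 483, 797, 448 and 1401 bp wide, with scores of 31.12, 32.53, 48.15, 48.86, 45.25 and 76.72 with rising coordinate. The widest and highest-scoring peak of the run thus lay at its Hoxb1 side, and peaks covered 64.4% of the run. A run of 4 peaks in 4.87 kb (96197672 to 96202541) had scores of 39.58, 43.61, 93.32 and 55.58. These runs held 10 of the 71 peaks, or 14.1%, whereas 993 peaks of the list, 1.19%, were in any of its 320 runs.

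The highest score in HoxB belonged to its first peak on the Hoxb13 side, which stood alone. It was 1404 bp wide (96063840 to 96065243) with a score of 127.21, it was also the widest of the cluster, and its neighbour in the window was 13.9 kb away. A peak of 1031 bp (96148062 to 96149092) in the middle part had a score of 100.69. The third, with 93.32, was the 944 bp peak in the run of 4 (96200243 to 96201186). The second widest, 1401 bp, closed the run of 6. The longest stretch without a peak was 16.8 kb (96180916 to 96197671), and it ended at the run of 4.

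In HoxC the peaks lay mainly in the middle and upper parts of the window, but its last 26.4 kb, at the Hoxc4 end, held none. From the Hoxc13 side to the Hoxc4 side, the 3 parts held 2, 5 and 4 peaks, with Poisson intervals that overlapped (0.242 to 7.22 for 2 peaks and 1.62 to 11.7 for 5). All peaks with a score of at least 50 lay in the middle part, with 1, and the upper part, with 3. A stretch of 33.7 kb without a peak (102752510 to 102786240) followed the first peak at the Hoxc13 end. Of 14 steps of 10 kb, 7 held no part of a peak, against 42.5% in the flanks, so empty steps were no rarer in the cluster than around it.

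Scores in HoxC stayed below 100. The highest were 84.28 in a 633 bp peak (102826059 to 102826691), 74.40 in a 910 bp peak (102845731 to 102846640) and 74.29 in an 853 bp peak (102842652 to 102843504). The last lay 432 bp from a peak of 1273 bp with a score of 39.86, the only close neighbours in the cluster. Thus 1 of 10 distances (10%) was no longer than 1 kb, against 4.50% in the flanks. The widest peak of all 4 clusters, 1585 bp (102821673 to 102823257), was in HoxC, and its score of 47.18 was an ordinary value. That 0 of 11 peaks reached 100 allows a share of up to 27.3% at 3 counts, or 28.5% by the exact binomial interval, so HoxC cannot be set apart from the other clusters on this count.

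In HoxD the strong peaks and the numerous peaks were in different places. The part towards Evx2 and Hoxd13 held 3 peaks, among them the only 2 of the cluster with a score of at least 50. Both exceeded 100: a 796 bp peak (74493871 to 74494666) had 113.14 and a 1212 bp peak (74519524 to 74520735) had 109.00. The middle part held 7 peaks, all with scores from 30.09 to 42.33 and a median width of 471 bp. The part towards Hoxd1 held 1 peak, of 1078 bp with a score of 40.40, after the longest distance between neighbouring peaks in any of the clusters, 34.4 kb (74566575 to 74600990). The counts were too small for the 3 parts to be told apart by peak number, with Poisson intervals of 0.619 to 8.77, 2.81 to 14.4 and 0.0253 to 5.57.

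The widest peaks of HoxD were 1222 bp (74505810 to 74507031, score 36.98) and the 1212 bp peak already named. The third by score, with 42.33, was 507 bp wide (74564563 to 74565069). Between the strong pair and the other peaks of HoxD, 11 in all, there was thus no intermediate score. In HoxA 6 of 22 peaks scored at least 50, 1 of them at least 100. In HoxB these counts were 12 of 27 and 2, and in HoxC 4 of 11 and 0. Over the list 24.1% of peaks scored at least 50 and 1.66% at least 100, and the contrast was not tested. Compared with its flanks, HoxD had fewer empty steps of 10 kb, 5 of 13 (38.5%) against 74.0%, and a shorter median distance between peaks, 7.59 kb against 25.1 kb. Of its 10 distances between neighbours, 2 (20%) were no longer than 1 kb, against 1.92% in the flanks.

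The window edges were set in round numbers, and the windows were proposed with the peak list known. The nearest peaks outside were 1.85 kb below HoxA (score 34.36) and 20.8 kb above it (34.76), and the outermost peaks inside scored 46.14 and 36.23. For HoxB they were 7.94 kb below (35.06) and 1.43 kb above (30.91), with 127.21 and 31.19 inside. For HoxC they were 28.9 kb below (30.53) and 11.8 kb above (30.16), with 40.08 and 55.79 inside. For HoxD they were 25.5 kb below (38.27) and 22.3 kb above (42.97), with 113.14 and 40.40 inside. All 8 of the nearest peaks outside had scores below 50, as had most of the list, where 24.1% of peaks reached 50.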

How the data were processed

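Per the submitters' processing notes, the authors used MACS 1.42 and the build mm9. The sources used here do not name the aligner, the read filters or the numbers of tags. The deposited list has a position and a score per peak and no header. The score deposited by the authors was taken as a p-value on a negative log10 scale multiplied by 10, judging by its lowest value of 30, and used only within this list.

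Peaks, covered bases, widths, scores and spacing were computed for 4 windows, their 1 Mb flanks and equal windows along the chromosome, beginning at its first base and ending by its last peak. The flank above HoxC was ended at the last peak. Complete tiling replaced random windows. The windows, gene list and measures were chosen with earlier results of these data known. Named peaks were the 3 highest-scoring and 2 widest of each cluster, all with a score of at least 100, runs of at least 3 peaks and the longest empty stretch; others were named after their values were seen. Intervals are 95% exact Poisson or binomial. With 1 library a side no test was made. Groups were taken from the sample labels. Counting steps were tested on simulated data. Promoters came from RefSeq (GRCm38.p6). Alternatives were score limits, joining of peaks within 1 kb, window edges, midpoints, flank length and tiling. Coordinates are 1-based. Software was pandas 2.3.3, numpy 2.4.6 and scipy 1.17.1 under Python 3.11.15, with figures from matplotlib 3.10.9.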

Additional observations from a re-analysis of the deposited data

How the results depend on the processing

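The score limit changed most values. At a minimum score of 50 the windows held 6 (HoxA), 12 (HoxB), 4 (HoxC) and 2 (HoxD) peaks, covering 4.97%, 5.66%, 2.27% and 1.54%. At a minimum of 100 they held 1, 2, 0 and 2 peaks, covering 0.982%, 1.28%, 0% and 1.54%. At 50, the share of equal windows with as many peaks was 0.402% for HoxA, 0% for HoxB, 6.78% for HoxC and 19.3% for HoxD. The ratio of density to the flanks was then 5.26 for HoxA (95% interval 1.72 to 13.7), 3.16 for HoxB (1.51 to 6.14), 1.53 for HoxC (0.391 to 4.33) and 2.56 for HoxD (0.279 to 11.5). At 100 it was 5.26 for HoxB (0.476 to 36.7) and 0 for HoxC, from 0 peaks against 1, and could not be computed for HoxA and HoxD, whose flanks had none. Joining peaks within 1 kb left 17 regions in HoxB and a ratio of 1.57 (0.884 to 2.63), whose interval includes 1, because of its close peaks. The HoxC ratio fell below 1, to 0.969, with windows lengthened by 10 kb at each end. By covered bases 2.50% of windows reached HoxB, and among all autosomes 5.74% reached HoxC. Of 90 alternative values, 65 stayed close: peak counts within 1.5 times, and covered shares, ratios and shares of windows within the main value's exact interval (for covered shares that of the count, scaled), with no ratio crossing 1. With tiles moved by 0.5 of a width, 0.157% of windows reached HoxB, 1 of 638. The covered share has no value by peak midpoint. No library could be left out and no paired analysis was possible because there is 1 library a side. The tag numbers are unknown, so stretches without peaks are not shown to be unbound.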
